A study of Mus musculus with 27 samples.

Results

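The sites analysed are the peaks of the chromatin demethylase UTX in mouse embryonic fibroblasts (MEF) with and without the reprogramming factors OSKM. They are 3540 peaks with doxycycline (dox) and 372 without, so 3912 of the 234651 peaks in the 19 peak lists of the series. Members were taken whole from the UTX list of each state, with no further selection, and they were set against each other and against the H3K4me3 and H3K27me3 peaks of the same cells. Both lists came from wild-type (WT, Utx+/Y) V19-OSKM fibroblasts grown in 2i/LIF medium, and only 1 of the cultures received dox, which switches on the OSKM transgenes. Further lists used for comparison are H3K4me3 and H3K27me3 of Utx-KO (Utx-/Y) V19-OSKM fibroblasts with dox and without it, all 3 antibodies in WT V6.5 embryonic stem cells (ESC), both marks in Utx-KO ESC, and both marks in 2 aberrant Utx-KO iPS clones. A UTX antibody, Ab-UTX 5/1, was used for the 3 UTX lists, all of which are from WT cells, so the antibody could not be checked against cells without UTX. The labels give neither the time on dox nor the share of fibroblasts that responded. The fibroblast and ESC labels could not be checked against marker genes, because the lists hold positions on the mm9 build and no annotation of that build was used here.

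UTX, the product of the X-linked gene Utx (Kdm6a), removes methyl groups from lysine 27 of histone H3 and is a subunit of complexes that methylate lysine 4 of the same histone. H3K27me3, the substrate of UTX, is laid down by Polycomb and marks repressed genes, while H3K4me3 is found at promoters that are in use or held ready. Oct4, Sox2, Klf4 and c-Myc, the OSKM factors, turn fibroblasts into pluripotent cells over a course in which many silent promoters have to be opened.

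Every fibroblast and ESC list came from a single library per state and antibody, while the aberrant iPS state had 2 clones. No difference below has a replicate check, no test was made, and the 95% intervals cover counting error over peaks only. The read depth behind the lists is unknown. A score is the authors' own value for each peak, and it grows with read depth. Scores served to order peaks inside a list and to set minimums, and where they are set side by side for both lists they describe the lists and not the strength of binding.

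UTX peaks with dox outnumbered those without it 3540 to 372, and no peak of one list overlapped a peak of the other. After overlapping peaks were merged, the regions of the dox state alone numbered 3540 and those of the untreated state alone 372, with 0 shared, which is a log2 ratio of 3.25 (95% interval 3.10 to 3.41). Meeting 0 of 372 untreated peaks allows a share of up to 0.806%. The dox peaks covered 2.08 Mb and the untreated ones 0.167 Mb. Both are a small part of the 2577 Mb between the outermost peaks of the chromosomes. Lists placed without relation to each other could thus also share no peak, and this was not tested. The number ratio depended on the score at which peaks were kept. With a score of at least 60 there remained 1113 peaks with dox and 327 without (log2 ratio 1.76), and with a score of at least 100 there remained 16 with dox and 53 without (log2 ratio -1.67, interval -2.63 to -0.90). The direction was thus the other way round at a score of at least 100, a minimum that depends on the depth of each library. None of these settings gave a shared peak, and neither did the comparison of the 372 highest scoring dox peaks, which scored 69.51 or more, with the 372 untreated peaks.

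The lists also differed in the shape of their peaks. The dox peaks had a median width of 572 bp (quartiles 513 and 630) and a median score of 55.99 (quartiles 52.78 and 62.06), with a highest score of 130.8. Untreated peaks were narrower, with a median of 442.5 bp (quartiles 392.5 and 466.2), and scored a median of 79.98 (quartiles 70.46 and 94.19) up to 320.2. Scores of 60 or more were held by 31.4% of the dox peaks and 87.9% of the untreated ones. Equal scores were common without dox: 48 of 372 peaks (12.9%), 325 to 478 bp wide, had a score of exactly 79.98, and the list held 265 distinct scores. The commonest score with dox, 54.54, was shared by 56 peaks (1.58%).

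**Figure D1:**
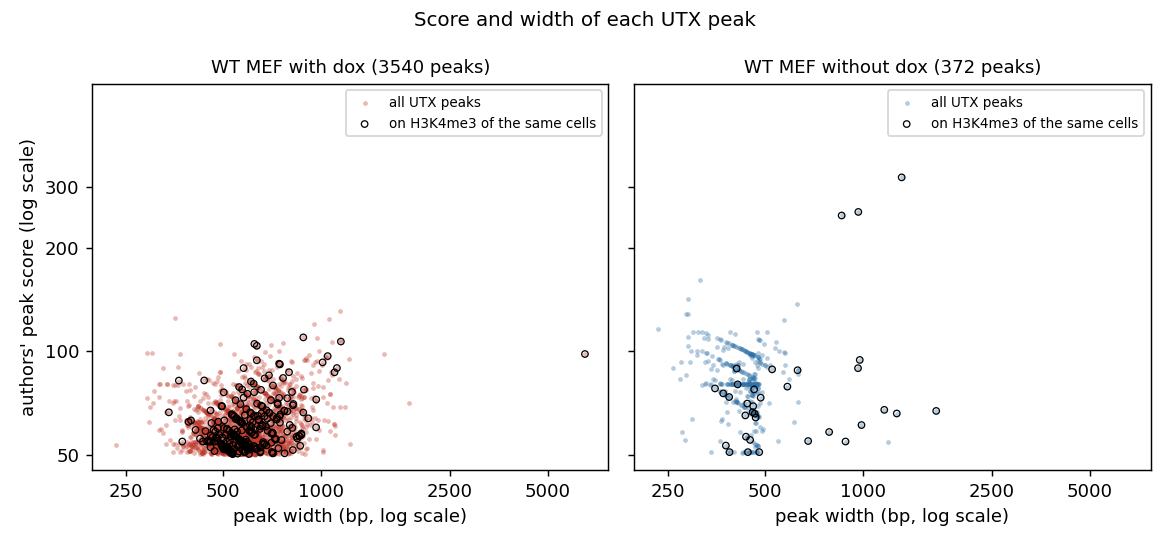
Width (bp, log scale) and authors' score (log scale) of each UTX peak, for WT MEF with dox on the left (3540 peaks) and without dox on the right (372 peaks); black rings mark peaks on H3K4me3 of the same cells. The dox peaks crowd near the lowest scores around 572 bp, the untreated peaks lie at higher scores and smaller widths with a band at 79.98, and the peaks above 200 are untreated peaks on H3K4me3.

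A small number of untreated peaks had a dox peak next to them. Within 1 kb of a dox peak lay 4 of the 372 untreated peaks (1.08%), within 5 kb 7 (1.88%) and within 50 kb 55 (14.8%). The dox list held 1.37 peaks per Mb over all chromosomes, so some unrelated positions would also lie that close. Their share was not computed, so these counts do not show that the 2 lists are related in position. The closest pair stood 77 bp apart, with the dox peak at chr10:67742934-67743593 (score 60.92) and the untreated peak at chr10:67743670-67744128 (score 69.12). Both members of that pair lay on H3K4me3 of their own cells. The next pairs stood 97 bp apart at chr18:24036393-24036791 with dox and chr18:24036888-24037361 without, and 139 bp apart at chr17:5956794-5957369 with dox and chr17:5957508-5957970 without. A pair on chromosome 2 followed at 300 bp, with chr2:155032311-155033178 with dox and chr2:155031552-155032011 without, and the fifth pair was 3207 bp apart. The last 4 of these pairs lay off H3K4me3, and their peaks met no other list of the series.

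Most of the highest scoring peaks met no other list, and so did most peaks of both lists at large. The 10 highest scoring dox peaks scored 105.5 to 130.8, and 7 of them met none of the other 18 lists. The leading ones were chr18:6085979-6087125 (score 130.8), chr16:3116182-3116537 (124.9), chr18:11826175-11827231 (123.9) and chr7:118247240-118248191 (119.6), all of them without either mark in any list. On H3K4me3 with dox lay chr6:124434645-124435527 (score 109.6), where H3K4me3 was also found in WT ESC, Utx-KO ESC and both iPS clones, but not in the other 3 fibroblast lists. The second was chr11:61317911-61319063 (score 106.6), which had H3K4me3 in all 8 H3K4me3 lists and UTX in WT ESC. Below the leading 10, chr1:60401787-60402410 (score 104.9) lay on H3K4me3 that was found in WT and Utx-KO fibroblasts with dox and in none of the other 6 lists.

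Without dox, the 10 highest scoring peaks scored 115.8 to 320.2, and 7 met no other list. The 3 that did also had the highest scores of the list, 320.2, 254 and 248, and they belong to the places with many marks described further on. The next in rank were chrX:120325097-120325410 (score 160.8), chr18:17564907-17565194 (142.1) and chr15:71317747-71318371 (137.3), and none of these lay on either mark. Over the whole lists, 3046 of 3540 dox peaks (86.0%) and 309 of 372 untreated peaks (83.1%) met no other list. Meeting no other list thus did not set the leading peaks apart.

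Few UTX peaks lay on H3K4me3 of their own cells, and the shares were close with dox and without. They were 267 of 3540 with dox (7.54%, interval 6.72 to 8.46) and 34 of 372 without (9.14%, 6.61 to 12.5). Within 5 kb of an H3K4me3 peak lay 638 dox peaks (18.0%, 16.8 to 19.3) and 67 untreated peaks (18.0%, 14.4 to 22.2). The median distance to H3K4me3 was 42.83 kb with dox (quartiles 10.28 and 177.4) and 59.32 kb without (14.6 and 245.1). More than 50 kb away lay 47.0% of the dox peaks and 55.6% of the untreated ones. In WT ESC, by contrast, 1326 of 5076 UTX peaks lay on H3K4me3.

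More dox UTX peaks lay on H3K4me3 of their own state than on that of the untreated state, whereas for the untreated peaks the order depended on a few places. Of the dox peaks, 267 lay on H3K4me3 with dox and 147 (4.15%) on H3K4me3 without dox, with medians of 42.83 and 60.38 kb to the nearest H3K4me3 peak. Of the untreated peaks, 26 (6.99%) lay on H3K4me3 with dox and 34 on H3K4me3 without, with medians of 54.63 and 59.32 kb. Without 4 places where every antibody gave peaks in untreated fibroblasts, described further on, the order turned, with 26 of 359 untreated UTX peaks (7.24%, 4.99 to 10.4) on H3K4me3 with dox and 22 (6.13%, 4.08 to 9.10) on H3K4me3 without. The H3K4me3 lists differ in covered length, 52.0 Mb with dox and 23.6 Mb without, and per Mb of that length the dox peaks numbered 5.14 on H3K4me3 with dox and 6.24 on H3K4me3 without. Counted by overlap per covered Mb, the order for the dox peaks was thus the other way round. Overlap of 1 bp at an edge counts here, which raises the number per Mb more for narrow peaks. H3K4me3 peaks had a median width of 1118 bp without dox and 2379 bp with it. The untreated peaks numbered 0.50 per Mb on H3K4me3 with dox and 1.44 on H3K4me3 without, and 1.57 on H3K4me3 of untreated Utx-KO fibroblasts.

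**Figure D2:**
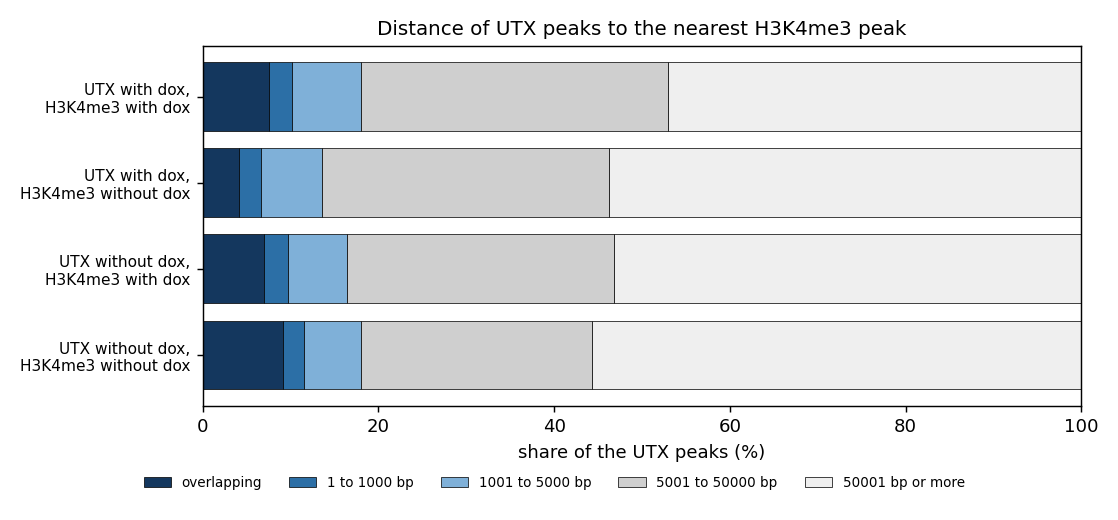
Share of UTX peaks (%) by distance from the peak's edge to the nearest H3K4me3 peak, for 3540 UTX peaks with dox (upper bars) and 372 without (lower bars), each measured against H3K4me3 with and without dox. Overlapping peaks make up 7.54% of the top bar and 9.14% of the bottom bar, and in all 4 bars most peaks lie more than 5 kb from H3K4me3.

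Although few in number, UTX peaks on H3K4me3 were dense for the length involved. H3K4me3 with dox took up 2.02% of the 2577 Mb between the outermost peaks of the chromosomes and held 5.14 dox UTX peaks per Mb, against 1.30 per Mb outside it, a ratio of 3.96. H3K4me3 without dox took up 0.914% and held 1.44 untreated UTX peaks per Mb, against 0.132 outside it, a ratio of 10.9. Without the 4 places these were 0.935 and 0.132 per Mb, a ratio of 7.08. The same ratio in WT ESC was 19.4, from 28.8 and 1.48 per Mb. Because wide peaks touch more positions, the dox peaks were also placed by their centres. Of 226 centres on H3K4me3 with dox, 110 lay where H3K4me3 was also present without dox (4.88 per Mb, interval 4.01 to 5.88), 69 lay in flanks that such shared peaks had with dox only (4.03 per Mb, 3.14 to 5.11), and 47 lay in H3K4me3 peaks found with dox only (3.81 per Mb, 2.80 to 5.07). The 3 intervals overlap one another, and all 3 densities are above the 1.31 per Mb outside H3K4me3 (1.27 to 1.36).

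How score related to H3K4me3 ran in opposite directions in the 2 fibroblast lists. With the dox list cut into 5 classes of 708 peaks from the lowest score up, 6.07%, 7.49%, 6.50%, 7.49% and 10.2% lay on H3K4me3, the last being 72 peaks scoring 63.79 or more (interval 8.15 to 12.6). Without dox, in 4 classes of 93 peaks, the shares were 20.4% (19 peaks scoring 50.67 to 70.41, interval 13.5 to 29.7), 7.53%, 4.30% and 4.30% (4 peaks scoring 94.21 or more, interval 1.69 to 10.5). The 4 peaks on H3K4me3 in the top class all lay in the 4 places described further on. Lower classes held peaks of these places on H3K4me3 as well. Among them, in the lowest class, were chr6:103598946-103599623 (score 54.72), chr9:3018217-3019488 (65.81) and chr9:3004375-3005258 (54.55). The untreated classes and medians given here keep those places and were not computed without them. The median distance to H3K4me3 in these classes was 26.18, 48.94, 65.31 and 150.7 kb, so the higher scoring untreated peaks lay farther from H3K4me3. Untreated peaks on H3K4me3 had a median score of 68.28 and a median width of 473 bp, against 80.39 and 438 bp off it. With dox the medians were 57.13 and 587 bp on H3K4me3, against 55.91 and 571 bp off it. WT ESC peaks had shares of 24.6%, 24.6%, 22.2%, 28.3% and 30.9% from the lowest to the highest of 5 classes. Among the 372 highest scoring dox peaks, 42 lay on H3K4me3 (11.3%, 8.46 to 14.9).

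**Figure D3:**
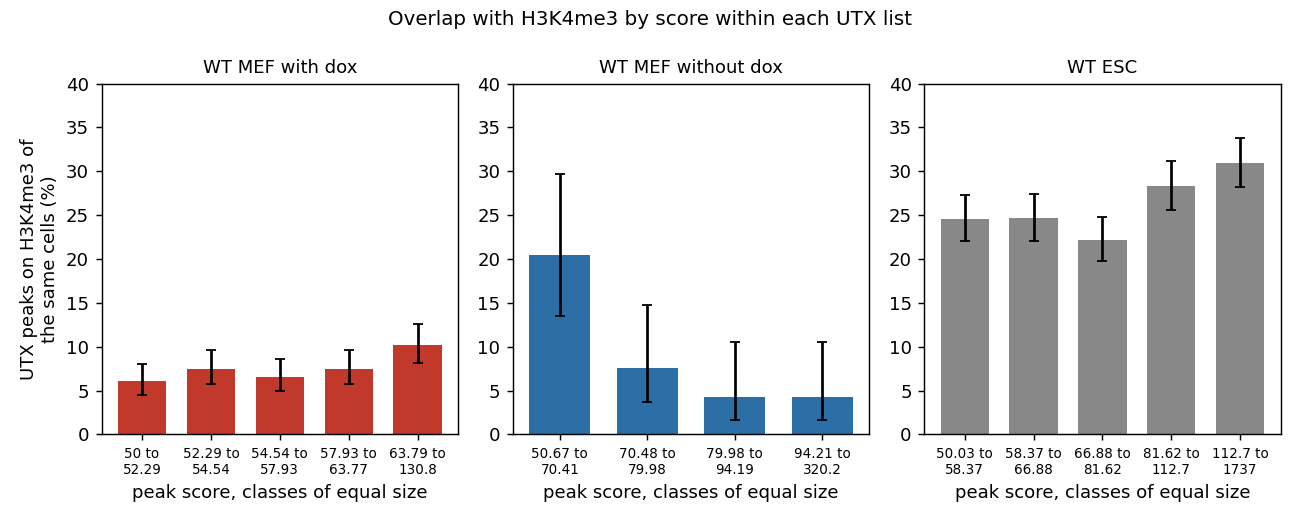
Share of UTX peaks on H3K4me3 of the same cells (%) in classes of equal size by score, from the lowest on the left, for WT MEF with dox, WT MEF without dox and WT ESC; error bars are 95% Wilson intervals. The share is highest in the top class with dox (10.2%) and in the bottom class without dox (20.4%).

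Most dox peaks on H3K4me3 were inside the marked stretch. Of the 267, 186 (69.7%) lay wholly within the H3K4me3 peak. By centre, 110 (41.2%) lay in its middle part, which spans 50% of its width, and 116 in the outer part. The other 41 overlapped it with the centre outside. Of the 34 untreated peaks, 20 (58.8%) lay wholly within, 20 had the centre in the middle part, 12 in the outer part and 2 outside.

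By H3K4me3 in 3 WT states, the dox peaks fell mostly outside the mark. In fibroblasts with dox, fibroblasts without dox and ESC alike, 130 of the 3540 lay on H3K4me3. Another 17 lay on it in both fibroblast states, 58 with dox and in ESC, 62 with dox only and 35 in ESC only, and 3238 (91.5%) lay on it in none of the 3. The untreated peaks comprised 18 on H3K4me3 in all 3 states, 2 in both fibroblast states, 2 with dox and in ESC, 4 with dox only, 14 without dox only, 1 in ESC only and 331 (89.0%) in none. H3K4me3 in all 8 lists of the series was met by 106 dox peaks (2.99%) and 16 untreated peaks (4.30%). Chosen after their values were seen, the leading dox peaks of that kind after chr11:61317911-61319063 were chr11:95245856-95246603 (score 91.47) and chr6:72386692-72387812 (score 89.24), and the leading untreated ones were chr1:137915371-137915778 (score 88.97) and chr5:24192651-24193175 (score 88.46). The dox peak that met the most lists, also chosen after its values were seen, was chr11:116142838-116143501 (score 54.32). It met 11 other lists, among them 7 of H3K4me3, 3 of H3K27me3 and UTX of ESC.

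Seen from the mark, 264 of 19689 H3K4me3 peaks with dox (1.34%) carried a dox UTX peak, and these were wide and high scoring. Their median width was 3150 bp and their median score 1977, against 2379 bp and 902 for all H3K4me3 peaks with dox. In 4 classes of equal size from the narrowest, UTX was carried by 24 (0.488%), 42 (0.853%), 75 (1.52%) and 123 (2.50%, interval 2.10 to 2.97) H3K4me3 peaks. Per Mb of H3K4me3 the classes held 3.86, 4.24, 5.48 and 5.55 peaks with UTX. The number per Mb thus varied less between the classes than the share did.

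**Figure D4:**
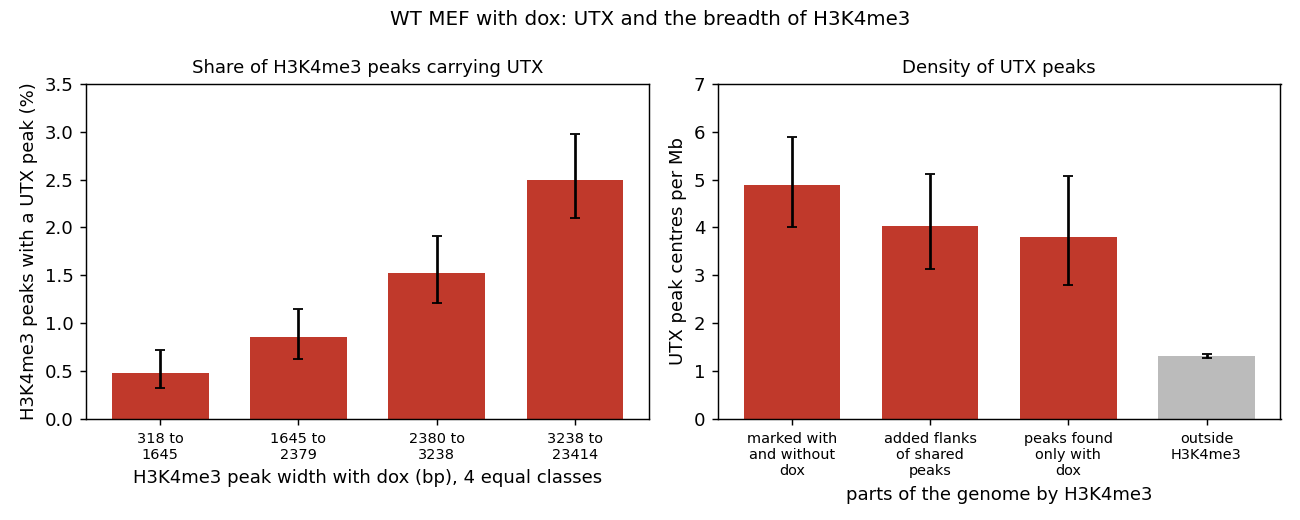
Left, share of H3K4me3 peaks of WT MEF with dox that carry a UTX peak (%), by H3K4me3 width in 4 classes of equal size, with 95% Wilson intervals; right, UTX peak centres per Mb in the parts of the genome by H3K4me3, with exact Poisson 95% intervals. The share goes from 0.488% in the narrowest to 2.50% in the widest class, and the 3 parts within H3K4me3 hold 3.81 to 4.88 centres per Mb against 1.31 outside.

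The 264 H3K4me3 peaks with UTX were shared with other cell states at higher rates than H3K4me3 peaks at large. H3K4me3 was lacking in untreated WT fibroblasts at 55 of them (20.8%, 16.4 to 26.1), against 35.5% of all 19689. It was lacking in Utx-KO fibroblasts with dox at 35 (13.3%, 9.69 to 17.9), against 21.4% of all. WT ESC had H3K4me3 at 226 (85.6%), against 73.5% of all. The 3 shares of all peaks lay outside these intervals, but all 3 varied with H3K4me3 width. Within classes of width from the narrowest, the share lacking H3K4me3 in Utx-KO fibroblasts with dox was 83.3% (20 of 24 with UTX), 14.3%, 6.67% and 3.25% for peaks with UTX, against 59.1%, 17.4%, 5.38% and 3.96% for all peaks. The share lacking it in untreated WT fibroblasts was 87.5%, 33.3%, 16% and 6.50% with UTX, against 81.0%, 38.9%, 13.5% and 8.57% for all. H3K4me3 in ESC was found at 33.3%, 73.8%, 92.0% and 95.9% with UTX, against 31.6%, 75.6%, 92.7% and 94.1% for all. In none of these 3 comparisons was 1 side the higher in every class. Leaving out all but the 372 highest scoring dox peaks gave 9 of 42 H3K4me3 peaks lacking the mark in Utx-KO fibroblasts with dox (21.4%, 11.7 to 35.9) and 13 of 42 lacking it in untreated WT fibroblasts (31.0%, 19.1 to 46.0), next to the shares of all peaks.

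For UTX of ESC and for H3K27me3 of Utx-KO fibroblasts, the difference had the same sign in all 4 width classes, although the classes held few such peaks. UTX in ESC was present at 26 of the 264 H3K4me3 peaks with dox UTX (9.85%, 6.81 to 14.0), against 4.26% of all. From the narrowest class to the widest it was found at 16.7%, 9.52%, 8.00% and 9.76% with dox UTX (4, 4, 6 and 12 peaks), against 3.15%, 3.19%, 4.08% and 6.62% for all. H3K27me3 of Utx-KO fibroblasts with dox was present at 14 of the 264 (5.30%, 3.19 to 8.70), against 10.7% of all. By width it was found at 4.17%, 11.9%, 4.00% and 4.07% with dox UTX (1, 5, 3 and 5 peaks), against 10.4%, 14.9%, 9.33% and 8.17% for all. The share was on the lower side for the other H3K27me3 lists of fibroblasts and ESC too, WT and Utx-KO alike. It was 18.2% in Utx-KO ESC (48 peaks, 14.0 to 23.3), against 31.3% of all, and 5.68% in WT ESC (15 peaks, 3.47 to 9.16), against 9.48% of all. Untreated Utx-KO fibroblasts had H3K27me3 at 4.17% (2.34 to 7.31), against 6.42% of all. Untreated WT fibroblasts had it at 4.17% (2.34 to 7.31), against 7.00% of all, and WT fibroblasts with dox at 0.758% (2 peaks, 0.208 to 2.72), against 1.20% of all. In the 3 last lists the interval includes the share of all peaks. H3K4me3 score differs between the sets as well, and its part in these differences was not tested.

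**Figure D5:**
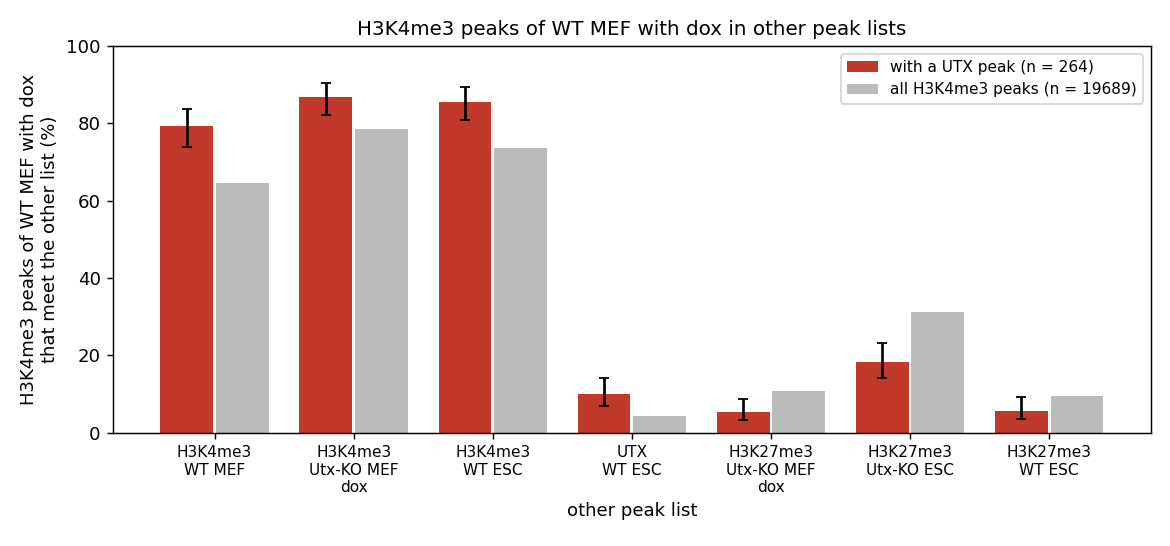
Share (%) of H3K4me3 peaks of WT MEF with dox that meet a peak of another list, for the 264 that carry a UTX peak (red, with 95% Wilson intervals) and for all 19689 (grey). Peaks with UTX have the higher share for H3K4me3 of WT MEF, Utx-KO MEF with dox and WT ESC and for UTX of WT ESC, and the lower share for the H3K27me3 lists drawn, those of Utx-KO MEF with dox, Utx-KO ESC and WT ESC.

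Without dox, UTX was carried by 36 of 18017 H3K4me3 peaks (0.2%). Their median width was 1238 bp and their median score 281, against 1118 bp and 282 for all. H3K4me3 was lacking with dox at 15 of the 36 (41.7%, 27.1 to 57.8), against 4.63% of all. H3K27me3 of the same cells was found at 10 (27.8%), against 1.48% of all, and UTX of ESC at 9 (25.0%), against 2.72% of all. Leaving out the H3K4me3 peaks whose UTX peak also met H3K27me3 left 26, of which 5 lacked H3K4me3 with dox (19.2%, 8.51 to 37.9) and 2 met UTX of ESC (7.69%). That step did not remove the 4 places whole. At chr9:2999891-3035215, 7 UTX peaks lay on H3K4me3 and only 4 on both marks.

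Nearly all of the H3K4me3 that carried UTX without dox and was missing with it sat in 4 places. These places, joined from untreated UTX peaks on both marks and any UTX peak within 20 kb of them, were chosen after their values were seen. They are chr9:2999891-3035215 with 8 UTX peaks (scores 54.55 to 94.21), chr2:98502279-98507600 with 3 (87.95 to 320.2), chr9:35112428-35113287 with 1 (248) and chr6:103598946-103599623 with 1 (54.72). None of the 5 lists from fibroblasts with dox had a peak in any of the places, in WT or in Utx-KO cells. The other 14 lists name no dox in their labels and include those of ESC and of the iPS clones. Of these 14, 9 had peaks in each of 3 places and 6 at chr6:103598946-103599623. Among them were H3K4me3 and H3K27me3 of both WT and Utx-KO untreated fibroblasts. Of the 34 untreated UTX peaks on H3K4me3, 20 also lay on H3K4me3 with dox and 14 did not, and 12 of these 14 were in the 4 places. The other two were 1 on the X chromosome, chrX:120759519-120759952, and 1 on the Y chromosome, chrY:1791608-1792394. Without the 4 places, 22 of 359 untreated UTX peaks lay on H3K4me3 (6.13%, 4.08 to 9.10), against 7.54% with dox. The H3K4me3 and H3K27me3 lists of WT ESC had no peak in any of the places. In untreated fibroblasts every antibody gave peaks there, and in fibroblasts with dox none did. The part of this pattern in the results on untreated UTX peaks was not tested.

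Few UTX peaks lay on H3K27me3, the substrate of UTX. With dox only 7 did, 2 of them also on H3K4me3, and these 7 were dense for the short length of the mark. Of the dox peaks, 7 lay on H3K27me3 of the same cells (0.198%, interval 0.0958 to 0.408), and of the untreated peaks 9 did (2.42%, 1.28 to 4.53). All 9 untreated ones also lay on H3K4me3 of untreated WT and Utx-KO fibroblasts, and 6 met UTX of ESC. They belong to the 4 places by construction, because the places were joined from untreated UTX peaks on both marks. Leaving them out leaves 0 of 363 untreated UTX peaks on H3K27me3, again by construction, so this 0 is not a measured absence. Leaving out the 2 dox UTX peaks on both marks in the same way left 5 of 3538 (0.141%, 0.0604 to 0.330). At these 2 dox peaks every antibody gave a peak in the same cells, as in the 4 places without dox. The counts per Mb given next keep the 2 peaks and were not computed without them. The dox list of H3K27me3 was short, with 938 peaks over 0.643 Mb, against 4760 peaks over 4.59 Mb without dox, which limits what could be met. Per Mb of H3K27me3, dox UTX peaks had 10.9 centres (7 peaks, interval 4.38 to 22.4), against 4.35 per Mb of H3K4me3 with dox (3.80 to 4.95) and 1.37 dox UTX peaks per Mb over all chromosomes. Without dox, H3K27me3 held 1.96 UTX centres per Mb (0.896 to 3.72), all of them in the 4 places, and H3K4me3 held 1.36 (0.929 to 1.92).

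The 7 dox peaks on H3K27me3 ranged widely in score. The highest was chr17:39979741-39986263 (score 98.03), at 6523 bp the widest UTX peak of the list, which also lay on H3K4me3 with dox and on UTX of ESC. Next came chr16:11143998-11144632 (94), likewise on H3K4me3 with dox and on both H3K4me3 and UTX of ESC. The remaining 5, off H3K4me3 with dox, were chr2:166171325-166171881 (78.88), chr5:14989043-14989719 (60.32), chr13:93265742-93266341 (59.32), chr6:49186017-49186897 (56.62) and chr6:31892107-31892796 (52.46). Within 5 kb of H3K27me3 lay 23 dox UTX peaks (0.650%), against 2.92% of all H3K4me3 peaks with dox, and 17 untreated UTX peaks (4.57%), against 4.87% of H3K4me3 peaks without dox. Without the 4 places only 4 of 359 untreated UTX peaks (1.11%, 0.434 to 2.83) lay that close. The median distance to H3K27me3 was 1180 kb for dox UTX and 652 kb for H3K4me3 with dox, and it was 413 kb for untreated UTX and 224 kb for H3K4me3 without dox.

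Dox UTX was also set against the H3K27me3 that untreated fibroblasts had carried. On H3K27me3 of untreated WT fibroblasts lay 13 dox UTX peaks (0.367%). They lay on 13 H3K27me3 peaks, none of which met H3K27me3 with dox, against 217 of all 4760 (4.56%) that did. With only 13 peaks and so low a share over all, finding none does not set the 13 apart. H3K4me3 with dox was found at 5 of the 13 (38.5%, 17.7 to 64.5), against 37.9% of all 4760, a value inside the interval. Chosen after its values were seen, chr6:39368353-39369047 (score 66.04) was the highest scoring of the 13 UTX peaks, and it lay on H3K4me3 both with dox and without. On H3K27me3 of Utx-KO fibroblasts with dox lay 16 dox UTX peaks (0.452%).

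UTX of ESC, the pluripotent end point of reprogramming, shared few positions with fibroblast UTX. It was met by 25 dox peaks (0.706%) and by 9 untreated peaks (2.42%), 7 of which lay on H3K4me3 of their own cells. Of these 9, 6 were in the 4 places, and without the places 3 of 359 untreated peaks (0.836%, 0.285 to 2.43) met UTX of ESC, a share whose interval includes that of the dox peaks. From the lowest to the highest score class of the dox list, 5, 4, 3, 3 and 10 peaks met UTX of ESC. The highest scoring of them was chr11:61317911-61319063, and with a score that also rounds to 106.6 came chr5:64800665-64801750, which met neither mark in any list. After chr17:39979741-39986263 and chr16:11143998-11144632, the fifth was chr5:136163534-136164546 (92.69), with H3K4me3 in 6 lists. Within 50 kb of UTX in ESC lay 19.8% of the dox peaks and 21.5% of the untreated ones. The ESC list held 1.97 UTX peaks per Mb over all chromosomes, so many unrelated positions would lie that close too, and their share was not computed.

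Along the chromosomes, dox UTX peaks were mostly far apart. The median gap between neighbours was 408 kb with dox and 4438 kb without, and 97 of 3520 gaps with dox (2.76%) and 8 of 351 without (2.28%) were 10 kb or shorter. The densest stretches of 100 kb with dox held 4 peaks, as at chr1:60401787-60500922, chr1:92373622-92396973 and chr2:52813716-52893577. Without dox the densest was chr9:2999891-3035215, with 8 peaks, of which 7 lay on H3K4me3. The X chromosome, of which these male cells have a single copy, held 32 of 3540 dox UTX peaks (0.904%, 0.641 to 1.27) and 7 of 372 untreated ones (1.88%, 0.914 to 3.83). It held 2.97% of H3K4me3 peaks with dox and 2.83% without. Of 584 H3K4me3 peaks on X with dox, 2 carried UTX (0.342%, 0.0940 to 1.24), against 1.34% of H3K4me3 peaks on all chromosomes.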

How the data were processed

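Each of the 19 immunoprecipitated samples had a deposited peak list with chromosome, start, end, name and score. The authors' score behaves like a MACS peak score and starts at 50. Build mm9 and the tools MACS 1.4.1, Bowtie 0.12.5 and CASAVA 1.8.2 come from the submitters' processing notes. Their roles, settings and controls are not given in the sources used here. Scores depend on read depth, so they were not compared as enrichment between lists. Whole-cell extracts were not analysed here.

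Peaks on numbered chromosomes, X and Y were kept, with 1-based coordinates. Overlap was at least 1 bp, and distances run edge to edge. Shares have 95% Wilson intervals, counts per Mb exact Poisson intervals, and log2 ratios, with 1 added to each count, Clopper-Pearson intervals. The limit for a count of 0 is 3 counts. Named peaks were the 10 highest scoring per list, the 5 highest on H3K4me3 or on UTX of ESC, all on H3K27me3, the 5 closest pairs and the 5 densest runs. Members and lists were chosen with earlier results of these data known. Overlap code was checked against bedtools on simulated peaks. Alternatives were other score minimums, 50% overlap, widening, a 1000 bp limit, equal numbers, autosomes only and leaving out positions with both marks. Leaving out 4 places was added after the data were seen. Computing used scipy 1.17.1, pandas 2.3.3 and numpy 2.4.6 under Python 3.11.15, with matplotlib 3.10.9 for figures.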

Additional observations from a re-analysis of the deposited data

How the results depend on the processing

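Depth is unknown. No paired analysis was possible because each state compared had 1 library per antibody. At a score of at least 60, the log2 ratio of regions found only with dox over only without was 1.76, and 9.34% of dox UTX peaks lay on H3K4me3 and 20.8% within 5 kb of it. At 100 or more the ratio reversed to -1.67, from 16 peaks with dox and 53 without. H3K4me3 then met 25% of dox and 5.66% of untreated UTX peaks, with the same shares within 5 kb. H3K27me3 met 0% of dox and 5.66% of untreated peaks, and 50% of 4 H3K4me3 peaks with UTX lacked H3K4me3 in Utx-KO MEF with dox and 50% in WT MEF. With equal numbers the ratio was 0 by construction, 11.3% of dox peaks lay on H3K4me3, 0.806% on H3K27me3 and 21.5% within 5 kb of H3K4me3, and the shares lacking H3K4me3 were 21.4% in Utx-KO MEF with dox and 31.0% in WT MEF. Counting only overlaps of 50% put 6.38% of dox peaks on H3K4me3. Widening by 2500 bp put 13.6% of dox and 14.2% of untreated peaks on H3K4me3 and 0.424% of dox peaks on H3K27me3. Within 1000 bp of H3K4me3 lay 10.2% of dox and 11.6% of untreated peaks. Leaving out untreated peaks on both marks left 0% on H3K27me3 by construction, because every untreated UTX peak on H3K27me3 also lay on H3K4me3. Without the 4 places, 6.13% of untreated peaks lay on H3K4me3 and, again by construction, 0% on H3K27me3. Causes were not tested, beyond the fewer peaks that each score minimum leaves. The 35 other values moved by less than their interval, all those on autosomes only among them. Equal numbers apply only to dox shares, and the 50% overlap and widening do not apply to distances.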
